A study of Mus musculus with 8 samples.

Results

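Transcripts of 9 secreted factors, *Esm1* and 8 growth factors of the VEGF, angiopoietin and angiopoietin-like families (*Vegfa*, *Vegfb*, *Vegfc*, *Vegfd*, *Pgf*, *Angpt1*, *Angpt2* and *Angptl4*), were followed in mouse malignant peripheral nerve sheath tumor (MPNST) cells treated with the MET kinase inhibitor capmatinib. The genes were taken by symbol from a table of 50600 genes, and all 9 had enough counts to be tested. *Esm1* was selected on its p for capmatinib in these same libraries, which was among the smallest, while the other 8 were chosen by name. Its response to the drug is therefore given as a description without a test.

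The NF1-MET cells came from a tumor with the alleles Plp-creERT tg/+ and lox-stop-loxMET tg/+ beside Nf1 fl/ko, in which a MET transgene is switched on by a tamoxifen-inducible Cre under the Plp promoter, active in Schwann lineage cells. The second line, NF1-MET;sgP53, was derived from them with a lentiviral CRISPR guide against *Trp53* and puromycin selection. The study reports that *Cdkn2a* was spontaneously deleted in the NF1-MET line, the parent of NF1-MET;sgP53. Cells of each line were given vehicle (DMSO) or 100 nM capmatinib for 24 h, and 2 replicate libraries of poly(A) RNA were sequenced for each of the 4 groups. Each genotype was 1 line, so loss of p53 and any other difference between the lines cannot be told apart. An empty-vector line was also made for the study, and the sample labels, which name these libraries NF1-MET, do not say whether they came from it. Their columns in the count table are headed SEVV and SEVC, in which EV could stand for empty vector. By the study's methods the 2 replicates were duplicate treatments in a multiwell plate, so the p-values measure the spread between wells of 1 line.

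VEGF-A, acting through the receptors VEGFR1 and VEGFR2, is the main growth and permeability signal for blood vessel endothelium, whereas VEGF-C and VEGF-D act chiefly through VEGFR3 on lymphatic vessels. VEGF-B and placental growth factor (PGF) bind VEGFR1. Angiopoietin-1 activates the endothelial receptor TIE2 and stabilizes vessels, and angiopoietin-2 opposes it in many settings. ESM1, also called endocan, is a proteoglycan carrying a dermatan sulfate chain, best known as a product of endothelial tip cells, and ANGPTL4 inhibits lipoprotein lipase and is induced by hypoxia and by PPARs. MET itself, the receptor of hepatocyte growth factor, is a receptor tyrosine kinase that can also drive angiogenic signals in tumors.

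Total counts per library were 30.1 M to 42.8 M, and values are given as CPM, the count per M counts of the library after scaling by TMM factors of 0.898 to 1.1. A single noncoding RNA gene, *Gm42418*, took 1.11% to 13.1% of the counts of a library. With vehicle, *Trp53* was at 182 and 193 CPM in NF1-MET and at 97.5 and 100.0 CPM in NF1-MET;sgP53, a log2 difference of -0.94 (SE 0.0327, adjusted p = 2.48e-14 by edgeR's quasi-likelihood F-test, Benjamini-Hochberg or BH adjusted). The 11 endothelial markers checked summed to 0.802 to 1.1 CPM in vehicle libraries of NF1-MET and 0.842 to 0.872 CPM in those of NF1-MET;sgP53, and *Tie1*, *Cldn5*, *Emcn* and *Robo4* had 0 counts in all 8 libraries. After capmatinib the endothelial sum was 2.24 to 2.55 CPM and 3.33 to 3.74 CPM, most of it *Erg*. The 3 endothelial markers that could be tested did not move together with capmatinib over both lines. *Erg* rose by 4.91 (SE 0.264, adjusted p = 1.09e-09) and *Vwf* by 1.06 (SE 0.442, adjusted p = 0.0449). *Esam* fell by -2.36 (SE 0.442, adjusted p = 0.000279, same test). The highest group means of *Vwf* and *Esam* were only 0.381 and 0.460 CPM. The 10 Schwann cell markers summed to 21.5 to 24.0 CPM with vehicle and 7.0 to 7.86 CPM with capmatinib, most of the vehicle level being *Gap43*, whereas the defining marker *Sox10* stayed at or below 0.175 CPM. The 8 macrophage markers summed to 1.80 to 2.12 CPM in every library, but the 2 that could be tested moved in opposite directions with capmatinib over both lines, *Cd68* by -0.76 (SE 0.182, adjusted p = 0.00189) and *Csf1r* by 1.48 (SE 0.294, adjusted p = 0.000467, same test). The part of these shifts in the results was not tested, and in bulk RNA fewer cells of a type cannot be told apart from less RNA per cell.

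*Esm1* (ENSMUSG00000042379) lies on the plus strand at chr13:113209659-113218098 of mm10 and has 1 annotated transcript of 2097 exon bases. In NF1-MET it was measured at 210 and 208 CPM with vehicle and at 34.1 and 33.1 CPM after capmatinib. In NF1-MET;sgP53 the values were 176 and 172 CPM with vehicle against 29.0 and 26.9 CPM after capmatinib. Every capmatinib library was far below every vehicle library in both lines, a separation that 83.5% of all genes showed in either direction in NF1-MET and 82.5% of genes in the sgP53 line.

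The log2 difference in *Esm1* between capmatinib and vehicle was -2.65 (SE 0.0332) in NF1-MET and -2.64 (SE 0.0416) in NF1-MET;sgP53, leaving 0.159 and 0.161 of the vehicle level. By size this exceeded the change of 96.8% and 97.3% of all genes tested, and in order of p over both lines *Esm1* was at rank 5 of 14497. The difference between the responses of the 2 lines was 0.00 (95% interval -0.15 to 0.16) on the log2 scale. These values chose the gene and carry no test of the drug effect or of the difference between the responses.

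The line difference in *Esm1* did not enter its choice. The level was lower in NF1-MET;sgP53 than in NF1-MET, the log2 difference being -0.28 with vehicle (SE 0.0271, adjusted p = 1.06e-07) and -0.26 with capmatinib (SE 0.0528, adjusted p = 0.00224; both by edgeR's quasi-likelihood F-test with BH adjustment). In neither treatment did the libraries of the lines overlap, as for 60.5% of all genes with vehicle and 52.3% with capmatinib. With library totals in place of TMM factors the difference in capmatinib was -0.15 (adjusted p = 0.443, same test).

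The 250 bases before the start sites that RefSeq lists for *Esm1* and *Vegfc* are shown because these genes had the largest fall and the largest rise among the 9 and because their start regions differ in base composition. Both are on the plus strand of GRCm38.p6, the assembly of mm10, with CG dinucleotides in capitals. The *Esm1* window is chr13:113209409-113209658 and the *Vegfc* window is chr8:54077282-54077531.
Esm1: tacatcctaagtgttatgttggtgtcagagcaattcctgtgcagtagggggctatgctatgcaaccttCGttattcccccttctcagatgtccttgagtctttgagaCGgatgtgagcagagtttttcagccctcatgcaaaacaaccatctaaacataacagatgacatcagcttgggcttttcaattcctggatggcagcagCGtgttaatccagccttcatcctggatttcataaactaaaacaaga
Vegfc: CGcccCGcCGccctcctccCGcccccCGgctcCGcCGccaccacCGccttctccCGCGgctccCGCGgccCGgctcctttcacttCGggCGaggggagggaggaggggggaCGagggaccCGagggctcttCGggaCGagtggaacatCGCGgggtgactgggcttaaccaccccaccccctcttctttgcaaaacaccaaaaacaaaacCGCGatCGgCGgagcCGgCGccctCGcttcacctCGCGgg

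The *Esm1* window held 3 CG dinucleotides at a GC content of 44%, below the median of 6 and 52.4% over all 32851 RefSeq windows of this length in the table used, whereas the *Vegfc* window held 30 at 71.6%. Among the other members with a window, *Vegfb* had 26 CG dinucleotides (76.4% GC), *Vegfd* 2 (42.4% GC), *Pgf* 20 and 7 in its 2 windows and *Vegfa* 11 and 7. No window was listed for *Angpt1*, *Angpt2* or *Angptl4*. Hypoxia-inducible factors bind a core of ACGTG or GCGTG, found on either strand in 16.6% and 28.2% of all windows. The *Esm1* window held 1 GCGTG, 47 bases before the start, and no ACGTG, and the *Vegfc* window held neither. Among the others GCGTG occurred 2 times in the *Vegfb* window, 1 time in the first *Pgf* window and 1 time in the second *Vegfa* window, which also held the only ACGTG. No member's window matched CACGTG (an E-box that contains ACGTG, 6.02% of all windows), TGANTCA (AP-1, 6.75%), GGAATG (TEAD, 12.6%) or CCGGAAG (ETS, 6.91%) on either strand. The starts listed by RefSeq do not all agree in place with the gene models used for the positions above. The sequence just after the *Vegfc* window is in none of its 3 annotated transcripts, which begin further downstream, and the second *Vegfa* window lies inside the gene and is followed by sequence found near the start of none of its 13 transcripts. Both *Pgf* windows also lie within the span of the gene, and the sequence after each is found near the start of 1 of its 4 transcripts. The *Vegfd* window (chrX:164373272-164373521) runs past the start of its gene model at 164373378. The sequence after that window is found near the start of 1 of the 2 *Vegfd* transcripts. A match or its absence describes only the letters of these 250 bases.

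**Figure D1:**
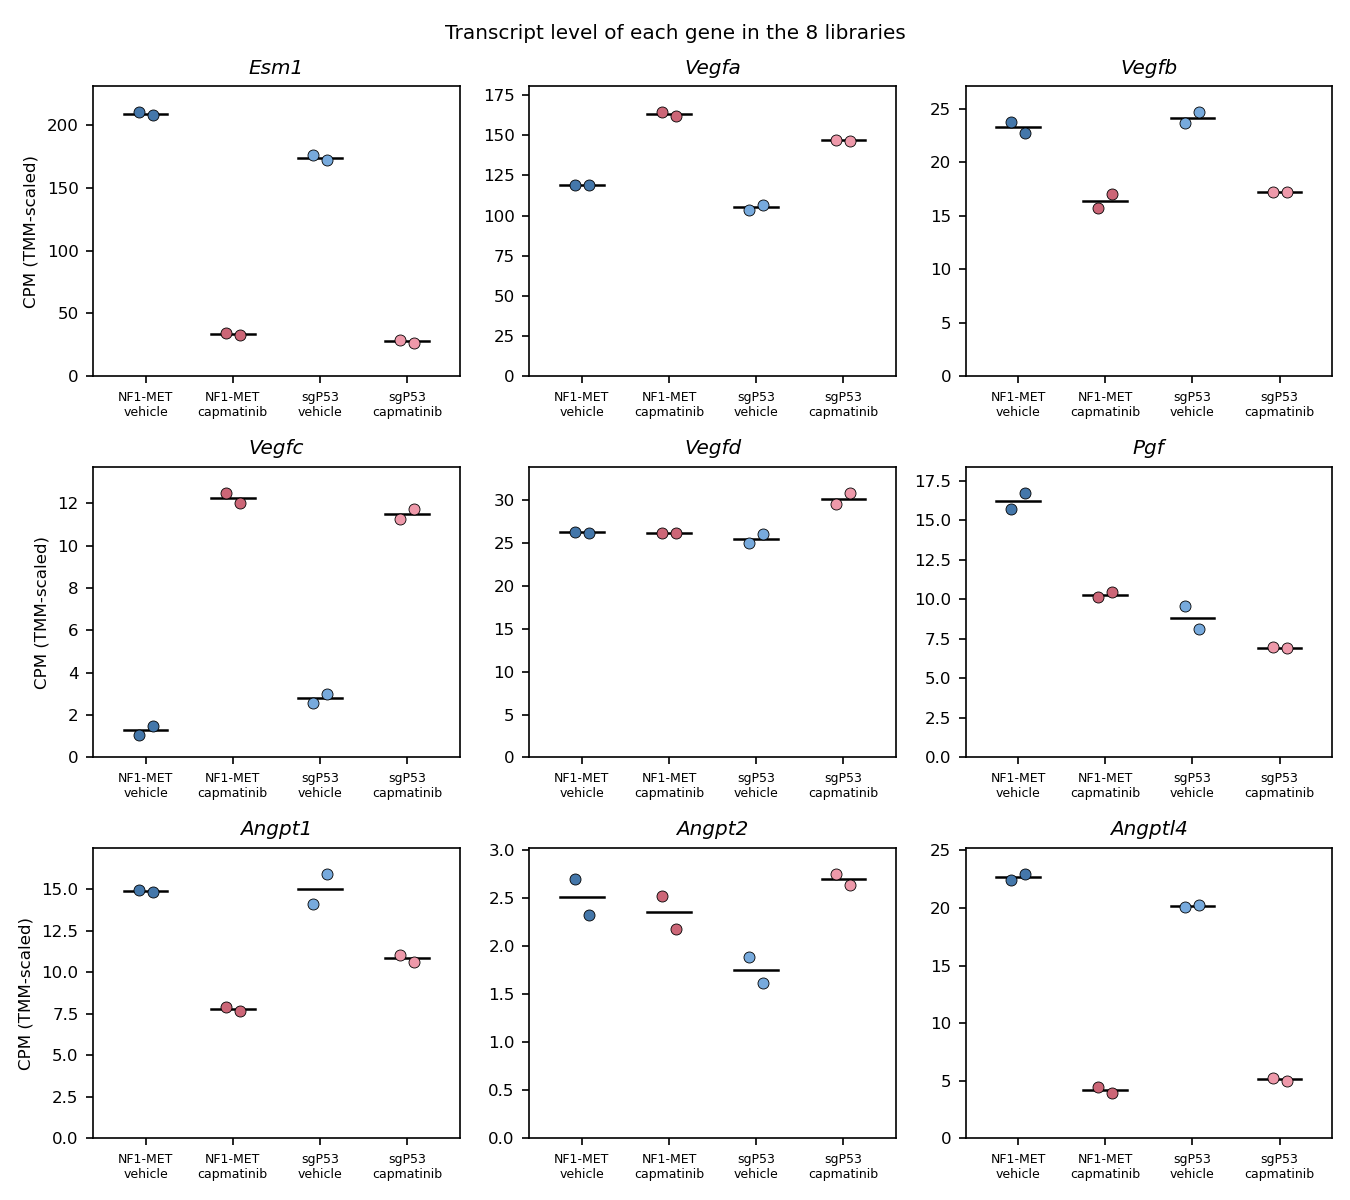
Transcript level of the 9 genes in each of the 8 libraries, in TMM-scaled CPM on linear axes that start at 0. Each dot is a library, the bar is the mean of the 2 libraries of a group, and sgP53 stands for NF1-MET;sgP53. *Esm1* and *Angptl4* were low and *Vegfc* was high in all 4 capmatinib libraries.

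Capmatinib moved the other 8 genes in different directions. In NF1-MET, 2 of the 8 rose (*Vegfa*, *Vegfc*), 4 fell (*Vegfb*, *Pgf*, *Angpt1*, *Angptl4*) and 2 did not pass the test, with a median log2 fold change of -0.32 against 0.00 over all genes. Of all genes in that comparison 70.2% were called, 35.5% higher and 34.7% lower, so a share of 6 of 8 is near the background. In NF1-MET;sgP53, 4 rose (*Vegfa*, *Vegfc*, *Vegfd*, *Angpt2*) and the same 4 as in NF1-MET fell, with a median of -0.05 against 0.00, where 67.6% of all genes were called (34.2% higher, 33.4% lower). Over both lines 3 rose (*Vegfa*, *Vegfc* and, near the threshold, *Vegfd*), 4 fell and *Angpt2* did not pass, with a median of -0.19 against 0.01 and a background of 73.7%. With library totals in place of TMM factors the all-gene median moved to -0.18 in NF1-MET, to -0.12 in the sgP53 line and to -0.16 over both lines, and 3508 genes rose and 6378 fell in NF1-MET, against 5140 and 5029 with TMM factors. The corresponding splits were 3260 and 4933 against 4963 and 4841 in NF1-MET;sgP53, and 3973 and 6501 against 5506 and 5183 over both lines. The same 8 libraries enter the comparison over both lines and the test of the difference between lines, and each line's vehicle or capmatinib libraries serve in several comparisons.

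*Vegfa* (ENSMUSG00000023951, minus strand, chr17:46016993-46032369), which encodes the principal vascular growth factor, rose moderately in both lines. It was measured at 119 and 119 CPM with vehicle against 164 and 162 CPM after capmatinib in NF1-MET, and at 103 and 107 CPM and 147 and 146 CPM in NF1-MET;sgP53. In each line both capmatinib libraries lay above both vehicle libraries. The log2 fold change was 0.44 (SE 0.0281, adjusted p = 3.93e-15) in NF1-MET and 0.48 (SE 0.0344, adjusted p = 3.24e-11) in NF1-MET;sgP53 by edgeR's quasi-likelihood F-test with BH adjustment, and the responses differed by 0.03 (95% interval -0.06 to 0.12). The gene has 13 annotated transcripts, which encode isoforms that differ in heparin binding, and gene counts do not separate them.

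*Vegfc* (ENSMUSG00000031520, plus strand, chr8:54077606-54187096), the lymphatic growth factor gene, showed the largest rise among the members. In NF1-MET it had 39 and 59 counts (1.07 and 1.48 CPM) with vehicle against 345 and 462 counts (12.5 and 12.0 CPM) after capmatinib. In NF1-MET;sgP53 it had 89 and 127 counts (2.59 and 2.97 CPM) with vehicle against 397 and 426 counts (11.3 and 11.7 CPM) after capmatinib. The lines differed with vehicle and came to a like level with capmatinib, where the log2 difference of NF1-MET;sgP53 from NF1-MET was -0.09 (95% interval -0.25 to 0.08). The rise was 9.38-fold in NF1-MET (log2 3.23, SE 0.137, adjusted p = 6.51e-20) and 4.11-fold in NF1-MET;sgP53 (log2 2.04, SE 0.109, adjusted p = 2.06e-13). Both are from edgeR's quasi-likelihood F-test with BH adjustment, and 5.94% and 5.10% of all genes changed by at least 2 on the log2 scale in the 2 comparisons. The smaller response in NF1-MET;sgP53 differed from that in NF1-MET by -1.21 (SE 0.196, adjusted p = 0.000135, same test for the interaction), and the vehicle level was higher there by 1.1 (SE 0.206, adjusted p = 0.000441).

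*Vegfd* (ENSMUSG00000031380, plus strand, chrX:164373378-164402650), the close relative of *Vegfc*, stayed near its vehicle level. In NF1-MET its libraries read 26.3 and 26.2 CPM with vehicle against 26.2 and 26.2 CPM after capmatinib, a log2 difference of -0.02 (95% interval -0.13 to 0.09, adjusted p = 0.745). In NF1-MET;sgP53 they read 25 and 26.1 CPM with vehicle against 29.6 and 30.8 CPM after capmatinib, a rise of 0.24 (SE 0.0543, adjusted p = 0.000462, edgeR's quasi-likelihood F-test with BH adjustment in both). The 2 capmatinib libraries of NF1-MET;sgP53 were the highest of the 8. These small changes depended on the scaling: with library totals they were -0.21 (adjusted p = 0.0102) in NF1-MET and 0.12 (adjusted p = 0.378) in NF1-MET;sgP53, and the change over both lines went from 0.12 (adjusted p = 0.0431) to -0.04 (adjusted p = 0.581), where the median of all genes was -0.16. The rise over both lines also missed the threshold with DESeq2's size factors in edgeR (0.11, adjusted p = 0.0621), by DESeq2's Wald test (0.11, adjusted p = 0.0928), with *Gm42418* left out (0.12, adjusted p = 0.0526) and with the replicate number as a block (0.12, adjusted p = 0.0567). Without any 1 of the 4 NF1-MET;sgP53 libraries the change over both lines was 0.08 to 0.11 (adjusted p = 0.103 to 0.188).

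*Vegfb* (ENSMUSG00000024962, minus strand, chr19:6982473-6987651) and *Pgf* (ENSMUSG00000004791, minus strand, chr12:85166635-85177790), whose products bind VEGFR1, both fell with capmatinib. *Vegfb* was at 23.8 and 22.8 CPM with vehicle against 15.8 and 17.0 CPM after capmatinib in NF1-MET, and at 23.7 and 24.7 CPM and 17.2 and 17.3 CPM in NF1-MET;sgP53. Its log2 fold change was -0.52 (SE 0.0646, adjusted p = 1.86e-08) in NF1-MET and -0.49 (SE 0.0626, adjusted p = 4.32e-07) in NF1-MET;sgP53, with no overlap between treatments. *Pgf* was at 15.7 and 16.7 CPM with vehicle against 10.2 and 10.4 CPM after capmatinib in NF1-MET, and at 9.57 and 8.10 CPM and 6.98 and 6.89 CPM in NF1-MET;sgP53. Every *Pgf* library of NF1-MET;sgP53 was thus below every library of NF1-MET. The *Pgf* change with capmatinib was -0.67 (SE 0.0771, adjusted p = 3.26e-09) in NF1-MET and -0.34 (SE 0.101, adjusted p = 0.00491) in NF1-MET;sgP53, where it did not pass without vehicle replicate 1 (-0.22, adjusted p = 0.0911) or by DESeq2's Wald test (adjusted p = 0.0502). All other adjusted p-values here are from edgeR's quasi-likelihood F-test with BH adjustment.

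**Figure D2:**
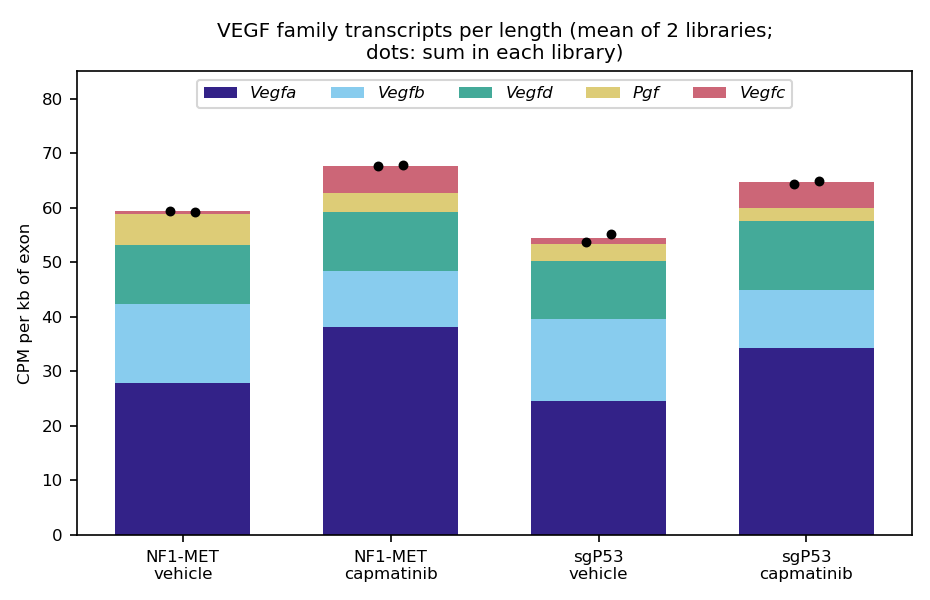
Levels of the 5 VEGF family genes per length, in CPM per kb of exon (union of annotated exons), stacked for each group as the mean of 2 libraries, with dots for the sum in each library. *Vegfa* made up the largest part in every group, and the share of *Vegfc* was larger with capmatinib.

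Per length of exon, the 5 VEGF family genes summed to 59.4 and 59.3 CPM per kb in NF1-MET with vehicle and 67.6 and 67.9 CPM per kb with capmatinib. In NF1-MET;sgP53 the sums were 53.6 and 55.2 CPM per kb with vehicle and 64.4 and 64.9 CPM per kb with capmatinib. The share of *Vegfa* in this sum went from 46.9% ± 0.13 to 56.2% ± 0.64 in NF1-MET and from 45.1% ± 0.15 to 53.0% ± 0.50 in NF1-MET;sgP53 (SD, n = 2 libraries). The share of *Vegfc* went from 0.878% ± 0.20 to 7.38% ± 0.21 and from 2.09% ± 0.16 to 7.26% ± 0.17. *Vegfb* shrank from 24.5% to 15.1% and from 27.7% to 16.6% of the sum. The shares are descriptions of the same values and were not tested.

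*Angpt1* (ENSMUSG00000022309, minus strand, chr15:42424723-42676977), the TIE2 agonist gene, fell in both lines and fell less in NF1-MET;sgP53. It was at 14.9 and 14.8 CPM with vehicle against 7.88 and 7.65 CPM after capmatinib in NF1-MET, and at 14.1 and 15.9 CPM and 11.1 and 10.6 CPM in NF1-MET;sgP53. The vehicle libraries of the lines overlapped, whereas with capmatinib NF1-MET;sgP53 was higher in both libraries. Its log2 fold change was -0.96 (SE 0.0834, adjusted p = 6.76e-12) in NF1-MET and -0.47 (SE 0.0817, adjusted p = 2.42e-05) in NF1-MET;sgP53. The difference between the responses was 0.47 (SE 0.113, adjusted p = 0.00822, edgeR's quasi-likelihood F-test with BH adjustment as for the changes), and without NF1-MET capmatinib replicate 2 it was 0.44 (adjusted p = 0.0519). *Gm17473*, on the opposite strand, shares 737 exon bases with *Angpt1*, and it had at most 2 counts in a library. Whether the counting used strand is not given in the sources used here, so reads of the shared bases could not be assigned to a strand.

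*Angpt2* (ENSMUSG00000031465, minus strand, chr8:18690263-18741562), the gene of the context-dependent TIE2 antagonist, was a gene of few counts, 65 to 98 per library over all groups. Its levels were 2.70 and 2.33 CPM with vehicle against 2.53 and 2.19 CPM after capmatinib in NF1-MET, which overlap. In NF1-MET;sgP53 they were 1.89 and 1.61 CPM with vehicle against 2.75 and 2.64 CPM after capmatinib, which do not. The log2 fold change was -0.12 in NF1-MET (adjusted p = 0.566) and 0.63 in NF1-MET;sgP53 (SE 0.191, adjusted p = 0.00594), and the difference between these responses was 0.73 (SE 0.257, adjusted p = 0.0751), all by edgeR's quasi-likelihood F-test with BH adjustment. The rise in NF1-MET;sgP53 did not pass without vehicle replicate 2 (0.51, adjusted p = 0.0584) or by DESeq2's Wald test (adjusted p = 0.0606), and the difference between responses passed when no filter on low counts was applied (0.76, adjusted p = 0.0457). Over both lines the change did not pass, except without NF1-MET capmatinib replicate 2 (0.38, adjusted p = 0.0498). The ratio of *Angpt1* to *Angpt2* per length of exon was 3.92 and 4.50 with vehicle and 2.21 and 2.48 with capmatinib in NF1-MET, and 5.30 and 6.98 with vehicle and 2.85 and 2.85 with capmatinib in NF1-MET;sgP53, lower with capmatinib in every library.

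*Angptl4* (ENSMUSG00000002289, minus strand, chr17:33773750-33781830), encoding the lipoprotein lipase inhibitor, had the largest fall of the 8 genes that were tested for the drug. It was at 22.4 and 22.9 CPM with vehicle against 4.48 and 3.96 CPM after capmatinib in NF1-MET, and at 20.1 and 20.2 CPM and 5.27 and 4.96 CPM in NF1-MET;sgP53. All 4 capmatinib libraries were well below the vehicle libraries. The log2 fold change was -2.46 (SE 0.0881, adjusted p = 7.45e-22) in NF1-MET and -1.98 (SE 0.0845, adjusted p = 3.59e-15) in NF1-MET;sgP53, and the latter was the smaller fall by 0.46 (SE 0.127, adjusted p = 0.0204, edgeR's quasi-likelihood F-test with BH adjustment throughout). That difference did not pass with library totals (0.53, adjusted p = 0.0680), by DESeq2's Wald test (0.47, adjusted p = 0.0766), without NF1-MET vehicle replicate 2 (0.44, adjusted p = 0.0529), without NF1-MET capmatinib replicate 2 (0.36, adjusted p = 0.182) or without NF1-MET;sgP53 capmatinib replicate 1 (0.41, adjusted p = 0.105).

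**Figure D3:**
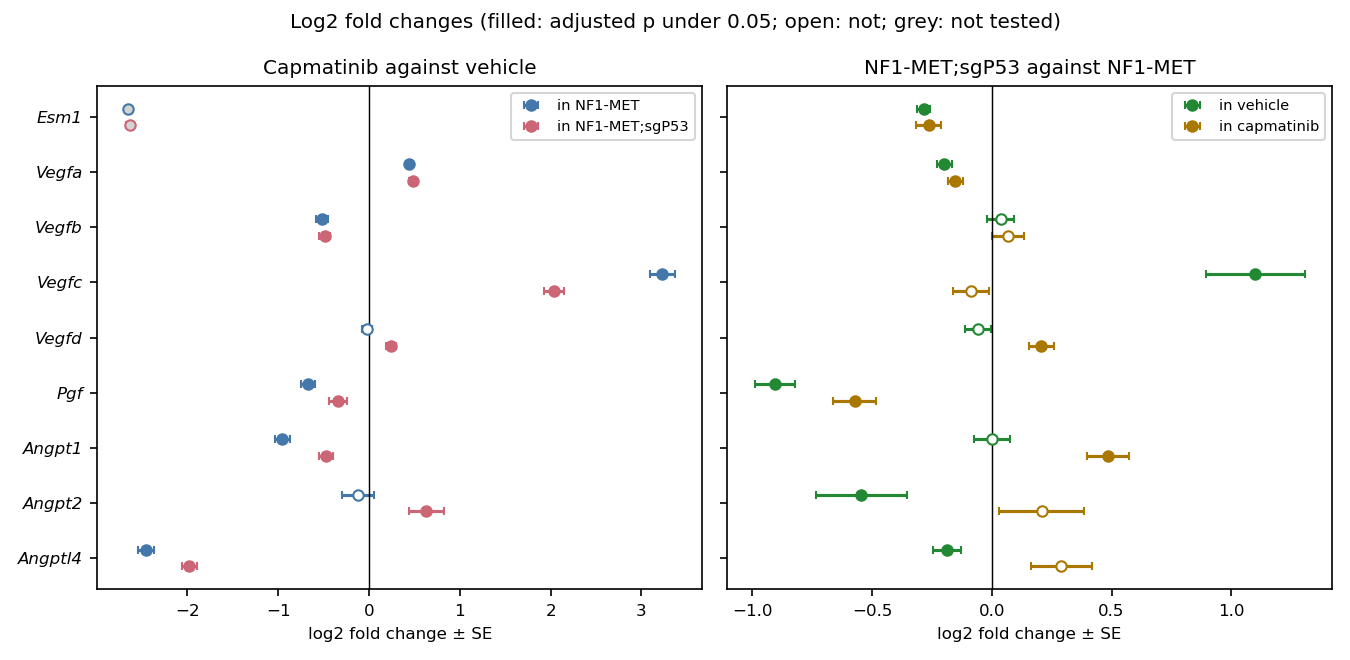
Log2 fold changes with their SE for the 9 genes, capmatinib against vehicle in each line on the left and NF1-MET;sgP53 against NF1-MET in each treatment on the right. Filled points had an adjusted p under 0.05, open points did not, and grey points (*Esm1* for capmatinib) were not tested. *Vegfc* lay at 3.23 and 2.04 on the left, and *Pgf* at -0.91 and -0.57 on the right.

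The lines were also compared within each treatment. With vehicle, 5 of the 9 genes were lower in NF1-MET;sgP53 (*Esm1*, *Vegfa*, *Pgf*, *Angpt2*, *Angptl4*), *Vegfc* was higher and 3 did not pass, beside 23.2% of all genes called (10.9% higher, 12.3% lower), with a median of -0.19 against 0.00. *Pgf* had the largest difference downward, -0.91 (SE 0.0846, adjusted p = 8.24e-08), and *Vegfa* was at -0.20 (SE 0.0315, adjusted p = 7.47e-05). For *Angpt1* the difference was 0.00 (95% interval -0.16 to 0.15), for *Vegfb* 0.04 (-0.08 to 0.16) and for *Vegfd* -0.06 (-0.17 to 0.05). *Angptl4* (-0.19, adjusted p = 0.0249) and *Angpt2* (-0.55, adjusted p = 0.0446) were near the threshold. The adjusted p of *Angptl4* was between 0.0688 and 0.135 when any of the 4 libraries was left out, and that of *Angpt2* was 0.258 and 0.0693 without NF1-MET vehicle replicate 1 or 2 and 0.216 without NF1-MET;sgP53 vehicle replicate 2. With library totals the count was 2 lower and 1 higher, *Vegfa* being at -0.14 (adjusted p = 0.176), and by DESeq2's Wald test it was 3 lower and 1 higher. Over all genes library totals gave 1280 higher and 743 lower against 1580 and 1775 with TMM factors, and 1 model of all 8 libraries gave 2046 and 1533. The adjusted p-values are from edgeR's quasi-likelihood F-test with BH adjustment.

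With capmatinib, 3 genes were lower in NF1-MET;sgP53 (*Esm1*, *Vegfa*, *Pgf*), 2 were higher (*Vegfd*, *Angpt1*) and 4 did not pass, where 12.3% of all genes were called (5.94% higher, 6.34% lower), with a median of 0.07 against 0.00. The log2 difference was -0.57 for *Pgf* (SE 0.0899, adjusted p = 0.000251), -0.15 for *Vegfa* (SE 0.0313, adjusted p = 0.00281) and 0.49 for *Angpt1* (SE 0.0869, adjusted p = 0.00089), by edgeR's quasi-likelihood F-test with BH adjustment. *Vegfd* was higher by 0.21 (SE 0.0519, adjusted p = 0.0126), but not past the threshold without NF1-MET;sgP53 capmatinib replicate 2 (0.18, adjusted p = 0.0707) or by DESeq2's Wald test (adjusted p = 0.154). With library totals, which moved the median of all genes by 0.11 and gave 537 genes higher and 129 lower against 860 and 918, *Pgf* remained lower and *Angpt1* higher among the 9, and *Vegfa* was at -0.04 (adjusted p = 0.850).

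The response to capmatinib differed between the lines for 4 of the 8 genes other than *Esm1*, less negative or more positive in NF1-MET;sgP53 for *Vegfd*, *Angpt1* and *Angptl4* and smaller for *Vegfc*, beside 9.71% of all genes called (3.85% above 0, 5.86% below). *Esm1* was left out of this count because its responses chose it. The split of all genes called, 558 above and 849 below, turned to 873 and 612 with *Gm42418* left out, 713 and 509 without NF1-MET;sgP53 capmatinib replicate 2, 192 and 123 with library totals, and 808 and 700 with no filter on low counts. The difference for *Vegfd* was 0.25 (SE 0.0748, adjusted p = 0.0374) and did not pass with library totals (adjusted p = 0.249), by DESeq2's Wald test (adjusted p = 0.136) or without any one of 6 libraries, the exceptions being NF1-MET;sgP53 vehicle replicate 2 and capmatinib replicate 1. With library totals and by the Wald test, 1 gene was above and 1 below, against 3 and 1. For *Vegfb* the difference was 0.01 (95% interval -0.17 to 0.20). For *Pgf* it was 0.31 (SE 0.126, adjusted p = 0.129), and without NF1-MET;sgP53 vehicle replicate 1 it was 0.43 (adjusted p = 0.0435). The adjusted p-values are from edgeR's quasi-likelihood F-test with BH adjustment unless the Wald test is named.

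Levels of different genes were set side by side only per length of exon. With vehicle in NF1-MET, *Esm1* was the most abundant of the 9 at 99.6 CPM per kb, ahead of *Vegfa* at 27.8, *Vegfb* at 14.5, *Vegfd* at 10.9, *Angptl4* at 6.40, *Pgf* at 5.58, *Angpt1* at 2.86, *Angpt2* at 0.682 and *Vegfc* at 0.521 CPM per kb. With capmatinib in NF1-MET, *Vegfa* came first at 38.1 CPM per kb, followed by *Esm1* at 16.0, *Vegfd* at 10.9, *Vegfb* at 10.2 and *Vegfc* at 5.00, while *Angptl4* was at 1.19 CPM per kb. The first 4 places were the same in NF1-MET;sgP53, with *Esm1* at 82.9 and *Vegfa* at 24.5 CPM per kb with vehicle and *Vegfa* at 34.3 and *Esm1* at 13.3 CPM per kb with capmatinib. The only neighbours in any order whose libraries overlapped were *Pgf* (3.04 CPM per kb) and *Angpt1* (2.88 CPM per kb) in NF1-MET;sgP53 with vehicle.

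Among 9070 other genes with at least 10 CPM in some group, those nearest to *Esm1* in centred log2 CPM over the 8 libraries were *Hmga1b*, *Junos*, *Btbd11*, *Hmga1* and *Dusp9*, at Euclidean distances of 0.206 to 0.314 beside a length of 3.75 for the *Esm1* profile itself. *Btbd11*, for example, averaged 75 and 61.9 CPM with vehicle against 10.3 and 9.84 CPM after capmatinib in NF1-MET and NF1-MET;sgP53. *Hmga1b* is a near-identical copy of *Hmga1*, so the split of reads between them is uncertain. Nearest to *Vegfc* were *Vgll3* (0.358) and *Dclk1* (0.4), beside a profile length of 3.89. Nearest to *Vegfa* were *Adcy6* (0.0493) and *Pdlim1* (0.0667), beside 0.702, and nearest to *Angptl4* were *Eml5* (0.387) and *Gm44275* (0.405), beside 3.12. The 8 libraries fall into treatment and line groups, so these distances are descriptions.

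Of the receptors, *Flt1* and the neuropilin coreceptors were detected, whereas the main signaling receptors of VEGF-A, VEGF-C and the angiopoietins were at or near 0. *Kdr*, encoding VEGFR2, had 0 to 2 counts and *Flt4*, encoding VEGFR3, 0 or 1 count in a library, and *Tek*, encoding TIE2, had at most 5 counts. *Flt1*, encoding VEGFR1, averaged 79.2 CPM with vehicle against 39.2 CPM after capmatinib in NF1-MET and 46.5 and 29.9 CPM in NF1-MET;sgP53. *Nrp1*, encoding the coreceptor neuropilin-1, averaged 73.6 and 196 CPM in NF1-MET and 105 and 176 CPM in NF1-MET;sgP53. Of the 5 receptor genes 3 could be tested, and over both lines *Nrp1* rose by 1.08 (SE 0.0971, adjusted p = 2.44e-07), *Nrp2* rose by 0.20 (SE 0.0291, adjusted p = 2.74e-05) and *Flt1* changed by -0.84 (SE 0.0630, adjusted p = 3.75e-08), by edgeR's quasi-likelihood F-test with BH adjustment. The median was 0.20 against 0.01 over all genes. *Nrp2*, at 0.04 with library totals (adjusted p = 0.557), did not hold its rise under that scaling. The responses of *Flt1* (0.37, adjusted p = 0.000247) and *Nrp1* (-0.66, adjusted p = 1.24e-10) differed between the lines, each being nearer 0 in NF1-MET;sgP53. The response of *Nrp2* was larger there, 0.26 against 0.12 (difference 0.12, adjusted p = 0.0419), which did not pass with library totals (0.20, adjusted p = 0.534) or without any 1 of 6 libraries (adjusted p = 0.0641 to 0.194), the exceptions being NF1-MET capmatinib replicate 2 and NF1-MET;sgP53 capmatinib replicate 2.

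Pro-VEGF-C and pro-VEGF-D are cleaved before they act. Of 5 genes in that process 3 could be tested for capmatinib over both lines by edgeR's quasi-likelihood F-test with BH adjustment, where 73.7% of all genes were called (38.0% higher, 35.8% lower), and their median was 0.50: *Ccbe1*, a cofactor of the cleavage, rose by 1.70 (SE 0.160) and the proprotein convertase gene *Pcsk7* by 0.50 (SE 0.0378), whereas *Furin*, another convertase, changed by -0.17 (SE 0.0254). Among 9 genes of TIE receptors and angiopoietin relatives 4 could be tested in the same comparison, of which 3 rose and *Angptl2* fell (-0.73, SE 0.0406). With the stricter filter on low counts only 2 of them could be tested, of which 1 rose and 1 fell. *Angpt4* and *Angptl7* had 0 counts in both NF1-MET vehicle libraries and at most 38 and 16 counts elsewhere, so in NF1-MET their rise is only bounded, at no less than 1.48 and 1.34 on the log2 scale against a floor of 3 counts per library. The median of the 4 in NF1-MET was 1.17 with these bounds.

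Of 16 further angiogenic ligand genes 15 could be tested, and 10 rose and 5 fell over both lines, with a median of 0.81. The genes of the vasodilator adrenomedullin, *Adm* (3.01, SE 0.0877, adjusted p = 2.55e-12) and of the vasoconstrictor endothelin-1, *Edn1* (2.30, SE 0.0720, adjusted p = 5.00e-12) are of that list, as are *Ccn2*, a matricellular factor (2.85, SE 0.147), and *Pdgfb*, which recruits pericytes (2.82, SE 0.0927). In the test of the difference between responses, the rise was smaller in NF1-MET;sgP53 for *Ccn2* (-0.97, adjusted p = 2.19e-18) and *Adm* (-0.49, adjusted p = 0.00985). It was larger there for *Pdgfb* (0.59, adjusted p = 0.0027), and the difference for *Edn1* did not pass (-0.14, adjusted p = 0.669). Of 13 genes of angiogenesis inhibitors 9 could be tested, and over both lines 6 rose and 3 fell, with a median of 1.12. Those that fell were *Thbs2* (-0.71, SE 0.0606), *Vash2*, whose product is also described as proangiogenic (-0.21, SE 0.0443), and *Col18a1*, the precursor gene of endostatin (-0.18, SE 0.0219). Among those that rose were *Adamts1*, a metalloproteinase (2.72, SE 0.0321, adjusted p = 1.31e-15), *Thbs1*, encoding thrombospondin-1 (2.02, SE 0.0316, adjusted p = 9.71e-15), and *Sparc* (1.19, SE 0.0191). *Ism1*, encoding isthmin, rose by 2.64 in NF1-MET;sgP53 (SE 0.169, adjusted p = 4.64e-12) and was at 0.19 in NF1-MET (adjusted p = 0.287), where it passed without vehicle replicate 1 (0.45, adjusted p = 0.0201), and the responses differed by 2.44 (adjusted p = 3.37e-07). These are edgeR's quasi-likelihood F-test with BH adjustment, and over both lines 38.0% of all genes rose and 35.8% fell.

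Hypoxia-inducible factors (HIF) induce *Vegfa* and *Angptl4* in many cells. Of 9 genes of the HIF machinery 8 could be tested, and 5 rose, 2 fell and 1 did not pass, with a median of 0.36, where 73.7% of all genes were called (38.0% higher, 35.8% lower). *Hif1a* rose by 0.74 (SE 0.0384), *Epas1*, encoding HIF-2α, by 0.62 (SE 0.0433) and their partner *Arnt* by 0.60 (SE 0.0297), whereas *Egln3*, a HIF prolyl hydroxylase and itself a HIF target, changed by -0.47 (SE 0.0595). Of 17 hypoxia-response genes 16 could be tested, with 9 higher, 2 lower, 5 not past the test and a median of 0.44, so the share called in both lists is near that of all genes. They included *Ddit4* (2.24, SE 0.0561), which restrains mTORC1, *Ndrg1* (1.74, SE 0.0406), *P4ha2*, a collagen prolyl hydroxylase (1.42, SE 0.0263), and *Ankrd37* (-1.12, SE 0.202). By edgeR's quasi-likelihood F-test with BH adjustment, *Ankrd37* changed by -1.76 in NF1-MET (adjusted p = 4.94e-13) and by -0.43 in NF1-MET;sgP53 (adjusted p = 0.0221). The responses differed by 1.31 (SE 0.208, adjusted p = 0.000103, same test). In NF1-MET;sgP53 alone, *Ankrd37* did not pass without vehicle replicate 2 (-0.41, adjusted p = 0.0853) or capmatinib replicate 1 (-0.37, adjusted p = 0.114).

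*Angptl4* is also a target of PPARs, nuclear receptors of fatty acid metabolism. Of 16 PPAR and lipid genes 12 could be tested, and 8 rose, 3 fell and 1 did not pass, with a median of 0.28, again beside 73.7% of all genes called (38.0% higher, 35.8% lower). *Pdk4*, which restrains glucose oxidation, rose by 1.27 (SE 0.0991), the carnitine carrier gene *Slc25a20* rose by 0.43 (SE 0.0516) and the lipid droplet gene *Plin2* changed by -0.62 (SE 0.0281). *Fabp4* had 1 to 4 counts in a vehicle library and 32 to 41 in a capmatinib library. It is among the 8 that rose, as are *Lpl* and *Pparg*, also genes of few counts. The highest group means of *Fabp4*, *Lpl* and *Pparg* were 1.11, 0.265 and 0.447 CPM, so the number that rose depends on the filter. For the dermatan sulfate chain that ESM1 carries, 17 of 18 synthesis genes could be tested, and 9 rose, 3 fell and 5 did not pass, with a median of 0.13 and the same background. *Csgalnact1*, which starts chondroitin chains, changed by -1.56 (SE 0.0576, adjusted p = 2.48e-11), and the epimerase gene *Dse* rose by 1.16 (SE 0.0502, adjusted p = 1.17e-10), the sulfotransferase genes *Chst12* and *Chst15* by 1.25 (SE 0.0584) and 0.75 (SE 0.0486), over both lines by edgeR's quasi-likelihood F-test with BH adjustment. With library totals, 6 synthesis genes rose and 6 fell (median -0.03), and 5 PPAR and lipid genes rose and 4 fell (median 0.12).

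**Figure D4:**
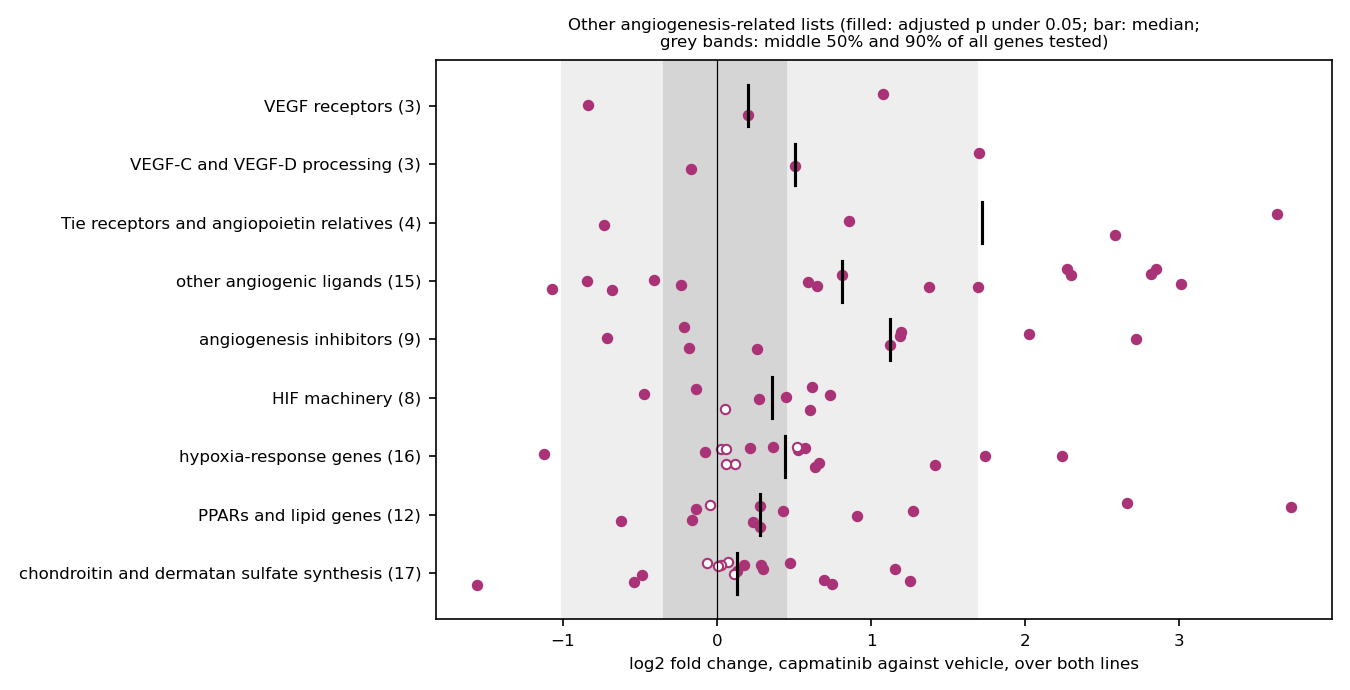
Log2 fold change with capmatinib over both lines for each tested gene of 9 lists, with the number tested in parentheses. Filled points had an adjusted p under 0.05, bars are list medians, and the grey bands hold the middle 50% and 90% of all genes tested. Medians ran from 0.13 for chondroitin and dermatan sulfate synthesis to 1.72 for the 4 Tie receptors and angiopoietin relatives, 2 of which had 0 counts in NF1-MET vehicle and so have fitted values that are no bound. The median of that last list ran from 0.067 to 1.855 over the alternatives run.

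With vehicle, where 23.2% of all genes differed between the lines (10.9% higher, 12.3% lower), 1 of the 3 receptor genes was higher in NF1-MET;sgP53 (*Nrp1*, 0.49, SE 0.0330, adjusted p = 7.45e-10) and 2 were lower, among them *Flt1* (-0.79, SE 0.0374, adjusted p = 3.53e-12, edgeR's quasi-likelihood F-test with BH adjustment). Of the 15 further ligand genes 5 were higher and 4 lower, of the 9 inhibitor genes 1 and 4, and of the 16 hypoxia-response genes 2 and 4. With capmatinib, 7 of those 16 were higher and none was lower (5.94% and 6.34% of all genes), with a median of 0.11, and in the test of the difference between responses 7 of 16 were above 0 and none below (3.85% and 5.86% of all genes), with a median of 0.15 against -0.03 over all genes. With library totals these counts were 5 and 1 of 16, again with none lower, and by DESeq2's Wald test 5 and 4. Of the 15 ligand genes 2 were higher and 6 lower with capmatinib, and of 8 HIF machinery genes 3 and 1. Of the 9 inhibitor genes 1 was higher and 3 lower, and of the 3 receptor genes 0 and 2. In the test of the difference these lists gave 2 above and 4 below 0, 2 and 0, 2 and 2, and 2 and 1. With library totals the counts with capmatinib were 2 and 2, 2 and 1, 1 and 1, and 0 and 0.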

How the data were processed

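Per the authors' methods and the labels, poly(A) libraries were sequenced in paired-end mode, and the reads were demultiplexed with bcl2fastq 1.9.0, trimmed with Trim Galore 0.4.2, checked with FastQC 0.11.7 and mapped to mm10 with STAR 2.5.2b. The deposited table holds raw counts per gene for the 8 libraries, not normalized. The annotation release and strand setting are not given in the sources used here. Positions, exons and exon lengths came from GENCODE M21, in which 50376 of 50600 identifiers were found. The 250-base windows came from RefSeq tables (GRCm38.p6), in which 6 of the 9 genes had an entry. The GCGTG search was added after the sequences were seen. The strand setting could alter counts of genes that share exon bases.

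The filter required 10 or more counts in 2 or more libraries and left 14497 genes. Tests used R 4.3.3 and edgeR 4.0.16 (TMM factors within each comparison, quasi-likelihood F-test, two-sided, Benjamini-Hochberg adjustment over all genes tested, threshold 0.05), after the method the authors state. Each SE is the log2 fold change divided by the root of F, and 95% intervals come from it and the test's degrees of freedom. The 6 comparisons were capmatinib in each line, capmatinib over both lines with line as a covariate, line in each treatment, and the interaction. Alternatives used DESeq2 1.42.0, library totals, other filters, a replicate block, all libraries in 1 model, *Gm42418* left out and each library left out. The procedure was also run on simulated data in which few genes changed, unlike the capmatinib comparisons, so that run does not check the scaling. Replicates differed by 1.56 to 1.83 times the sampling noise (median squared difference) and were kept apart.

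The text names all 9 members, *Trp53*, from each list up to 4 of the genes with the largest absolute changes with capmatinib over both lines among those called at 1 CPM or more, and the genes of nearest profile, 5 for *Esm1* and up to 2 for others. In addition, *Angpt4*, *Angptl7*, *Kdr*, *Flt4*, *Tek*, *Gm17473*, *Gm42418*, *Thbs2*, *Vash2*, *Col18a1*, *Lpl*, *Pparg* and the marker genes were named after their values were seen. The members, lists and tests were chosen with earlier results of these data known.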

Additional observations from a re-analysis of the deposited data

Results flagged for a closer look

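The response to capmatinib differed between NF1-MET and NF1-MET;sgP53, by the interaction term of edgeR's quasi-likelihood test, for 4 of the 8 genes other than *Esm1*. As response in NF1-MET;sgP53 minus response in NF1-MET on the log2 scale, the difference was -1.21 for *Vegfc* (adjusted p = 0.000135), 0.25 for *Vegfd* (adjusted p = 0.0374), 0.47 for *Angpt1* (adjusted p = 0.00822) and 0.46 for *Angptl4* (adjusted p = 0.0204). The *Vegfc* difference passed under every alternative run. The *Vegfd* and *Angptl4* differences did not pass by DESeq2's Wald test or with library totals, nor without several of the single libraries, and that of *Angpt1* did not pass without NF1-MET capmatinib replicate 2 (0.44, adjusted p = 0.0519).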

How the results depend on the processing

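For the line differences and the interaction, the number of genes called was lowest when library totals replaced TMM factors and with DESeq2's Wald test. From 3355 for the line difference with vehicle it went to 2023 and 1933, from 1778 with capmatinib to 666 and 870, and from 1407 for the interaction to 315 and 894. The capmatinib counts stayed within 1.5 times their value in every alternative. Of the values of the 9 genes, 442 were unchanged in call under alternatives that kept all libraries, 20 no longer passed and 2 newly passed. Among values that passed in at least 1 of the fits compared, *Vegfd* over both lines changed sign with library totals (-0.042 against 0.12), as did the coreceptor gene *Nrp2* in NF1-MET (-0.061 against 0.12) and the line difference of *Thbs2* with capmatinib (0.007 against -0.109). Values that passed in neither fit could also change sign and count as unchanged. The line difference of *Vegfc* with capmatinib, for example, was 0.028 with library totals against -0.087. *Esm1* for capmatinib went to -2.84, -2.76 and -2.80 with library totals in NF1-MET, NF1-MET;sgP53 and over both lines. The cause of these changes was not tested. Of 9 gene lists, the median over both lines with capmatinib changed sign for chondroitin and dermatan sulfate synthesis (0.13 to -0.03, library totals).

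With single libraries left out, a lone library being assumed to vary like the others, calls ranged from 9192 to 9622 for capmatinib in NF1-MET, 9008 to 9333 in NF1-MET;sgP53, 10273 to 10421 over both lines, 2367 to 2959 and 1356 to 1740 for the line with vehicle and with capmatinib, and 970 to 1244 for the interaction. Of the values of the 9 genes 260 were unchanged in call, 24 no longer passed and 2 newly passed. *Esm1* in NF1-MET;sgP53 ran from -2.69 to -2.59 without either capmatinib library.

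The replicate numbers pair nothing that the labels state, and same-numbered libraries did not deviate together (correlations of -0.0536 to 0.102). With the replicate number as a block, 10141, 9866, 10580, 3994, 1777 and 1524 genes were called in the 6 comparisons in the order given above, and of the 9 genes' values *Vegfd* over both lines no longer passed (0.12, adjusted p = 0.0567). Depth limits *Angpt2* and, with vehicle, *Vegfc*, which had under 130 counts in a library there.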
